A study of Mus musculus with 11 samples.

Results

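Polycomb repressive complex 1 (PRC1) was followed through 9 of its genes in 11 mouse high-grade gliomas, 9 with prolonged Ezh2 knockdown and 2 controls. The members were taken from the deposited count table by gene symbol. They were the Pcgf genes Pcgf1, Pcgf2, Pcgf3, Pcgf5 and Bmi1 and the chromobox genes Cbx2, Cbx6, Cbx7 and Cbx8, that is 9 of the 27687 genes listed. All 9 passed the filter on low counts, and the smallest count of any of them in any tumour was 41 reads, for Pcgf5.

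PRC1 is a ubiquitin ligase for histone H2A that helps to keep developmental genes silent. Every PRC1 holds a catalytic Ring1 or Rnf2 subunit paired with a single Pcgf protein, and the Pcgf protein helps to decide which form of the complex is made. Canonical PRC1, built on Pcgf2 or Bmi1, also carries a Cbx protein whose chromodomain reads the histone H3 methyl mark that PRC2, the complex of Ezh2, deposits. Variant PRC1 is the form of the other Pcgf proteins, though Pcgf2 and Bmi1 are not confined to canonical PRC1. It carries Rybp or Yaf2 in place of a Cbx protein and does not need that mark to be recruited. Bmi1 is known for sustaining self-renewal of neural stem cells, chiefly by repressing the Ink4a/Arf locus.

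The tumours of both groups came from the same kind of engineered cell. Neural stem cells of the subventricular zone were taken at the age of 7 days from mice with the compound conditional genotype p53;Ink4a/Arf;Krasv12;LucR, made tumorigenic in culture by lentiviral CMV-Cre, infected with the doxycycline-responsive hairpin FH1-tUTG-shEzh2, sorted for GFP and injected into the brains of NOD-SCID mice. These hosts lack functional lymphocytes but keep myeloid cells. The first group held 9 tumours labelled as prolonged Ezh2 knockdown and the second held 2 labelled as controls without knockdown. The treatment field of the labels gives doxycycline at 2 mg/ml with 1% sucrose for every tumour, whereas the series' design text says that mice were treated with or without the drug. An effect of the drug and an effect of the hairpin therefore cannot be told apart here. A single hairpin construct was used, and Bmi1 and Cbx7 were measured in cells in which the conditional Ink4a/Arf locus had been targeted.

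Totals over genes ran from 11209233 to 18638382 reads per library. Levels are given in CPM, read counts relative to the library's total after TMM scaling, and tests are the edgeR quasi-likelihood test with Benjamini-Hochberg adjustment over all 16241 genes tested, called at an adjusted p under 0.05. Ezh2 was lower in every knockdown tumour, at 7.27, 14.6 and 30.4 CPM (lowest, median, highest), against 45.3 and 52.7 CPM in the controls (log2 fold change -1.59 ± 0.44 SE, edgeR adjusted p = 0.023). That call was lost when either control was left out. Knockdown 7 and 9 lay apart from the other tumours on the second principal component of all genes, at 56.0 and 68.9, and knockdown 6 lay apart on the other side, at -52.8, with the other 8 libraries between -15.2 and 1.09. The counts of called markers that follow stand beside 10.3% called higher and 13% called lower over all genes tested. Among 10 markers of glioma and neural stem cells, all of them detected, 5 were lower in the knockdown and 1 was higher. Their summed level was 3014 to 4398 CPM in the knockdown tumours against 8111 and 6991 CPM in the controls. Of 14 macrophage and microglia markers 10 were lower (summed 594 to 1440 CPM in knockdown, 1328 and 2738 CPM in control), and of 9 tested neutrophil markers 8 were lower (3.00 to 11.1 CPM against 212 and 63.9 CPM). Of 9 tested oligodendrocyte markers 3 were higher (285 to 441 CPM against 134 and 107 CPM), and of 10 neuron markers 3 were higher (64.8 to 474 CPM against 216 and 152 CPM). Of 10 endothelial markers 3 were higher and 1, Flt1, was lower (163 to 404 CPM against 461 and 276 CPM). Flt1, a receptor for vascular endothelial growth factor, averaged 41.1 CPM in knockdown and 219 CPM in control and made up much of the endothelial sum in the controls. The median log2 fold change was 0.75 over the endothelial and 1.64 over the neuron markers, and the neuron sums of the controls were largely Nefl (44.0 CPM in knockdown, 64.6 CPM in control) and Nefm (32.4 and 70.7 CPM), which did not pass. No gene of these marker lists was at 0 in all libraries. Their part in the results below was not tested, and in these bulk samples fewer cells of a type and less RNA per cell cannot be told apart.

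The promoters of the members are shown first, because 4 of them share a short sequence. RefSeq promoters were at hand for 7 of the 9 members, and the 250 bases before the start site were searched on both strands. The E-box CACGTG, the letters to which Myc and its partner Max are known to bind, was present in Pcgf2, Bmi1, Cbx6 and Cbx8, and in 6.02% of all 32851 promoters of the same length. The E2F-type letters TTTCCCGC and TTTGGCGC were in none of the 7, and in 0.895% and 0.417% of all promoters. The promoters below are given 5′ to 3′ on the strand of the gene (GRCm38.p6), in lower case with CACGTG in capitals. That of Pcgf5, the first of its 3 annotated start sites, is set beside them as a member without the E-box.
Pcgf2 (chr11:97699649-97699898, minus strand): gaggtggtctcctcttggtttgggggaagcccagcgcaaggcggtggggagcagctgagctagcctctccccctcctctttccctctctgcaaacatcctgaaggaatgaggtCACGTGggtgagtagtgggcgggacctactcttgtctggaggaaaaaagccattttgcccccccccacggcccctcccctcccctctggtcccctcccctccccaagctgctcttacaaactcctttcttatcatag
Bmi1 (chr2:18676768-18677017, plus strand): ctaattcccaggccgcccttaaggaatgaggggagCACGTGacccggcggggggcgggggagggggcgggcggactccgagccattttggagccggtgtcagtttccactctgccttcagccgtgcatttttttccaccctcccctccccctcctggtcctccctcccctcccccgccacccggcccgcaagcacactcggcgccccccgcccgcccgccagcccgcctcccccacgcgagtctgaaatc
Cbx6 (chr15:79834334-79834583, minus strand): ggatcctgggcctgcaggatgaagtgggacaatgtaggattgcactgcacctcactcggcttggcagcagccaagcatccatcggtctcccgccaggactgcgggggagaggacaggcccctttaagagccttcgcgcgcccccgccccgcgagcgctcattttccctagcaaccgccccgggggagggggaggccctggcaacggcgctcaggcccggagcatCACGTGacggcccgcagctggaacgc
Cbx8 (chr11:119040914-119041163, minus strand): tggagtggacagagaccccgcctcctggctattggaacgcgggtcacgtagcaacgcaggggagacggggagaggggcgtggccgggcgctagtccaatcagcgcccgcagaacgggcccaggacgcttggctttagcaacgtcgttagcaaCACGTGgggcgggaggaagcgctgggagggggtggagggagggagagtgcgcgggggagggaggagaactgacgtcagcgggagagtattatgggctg
Pcgf5 (chr19:36348079-36348328, plus strand): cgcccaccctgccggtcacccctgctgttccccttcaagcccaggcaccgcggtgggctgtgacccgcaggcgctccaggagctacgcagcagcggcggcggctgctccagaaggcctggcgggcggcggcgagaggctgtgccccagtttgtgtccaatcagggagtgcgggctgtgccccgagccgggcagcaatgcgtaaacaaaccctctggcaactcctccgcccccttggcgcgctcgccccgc
The E-box began 137 bases before the start in Pcgf2, 215 in Bmi1, 26 in Cbx6 and 98 in Cbx8. Pcgf2 had few CpG dinucleotides in its window, 5, close to the median of 6 over all promoters, whereas Bmi1 had 21, Cbx6 20, Cbx8 22 and the first Pcgf5 start 23. Cbx7 and Pcgf3, which also lacked the E-box, had 23 and 16. Since CACGTG itself holds a CpG, the 6.02% over all promoters is not a share among promoters of like CpG content. Such a share was not computed, so the 4 matches cannot be read as an excess. A match of letters is a description of the sequence and says nothing of whether a factor was bound in these tumours.

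Among the Pcgf genes Pcgf1 and Pcgf2 were higher and Pcgf5 was lower in the knockdown tumours, while Bmi1 and Pcgf3 did not pass the test. No chromobox member passed in edgeR or DESeq2, and among them Cbx8 alone had an unadjusted p under 0.05 (0.046 in edgeR). Thus 3 of the 9 members were called, 2 higher and 1 lower, beside 23.3% of all genes tested, 10.3% called higher and 13% called lower. In 4 members the 9 knockdown tumours lay on one side of both controls, Pcgf1 and Pcgf2 above and Pcgf5 and Bmi1 below, beside 27.2% of all genes. With 9 members these shares do not set the group apart from the transcriptome by its number of calls. The median log2 fold change was 0.078 over the members and 0.066 over all genes tested.

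**Figure D1:**
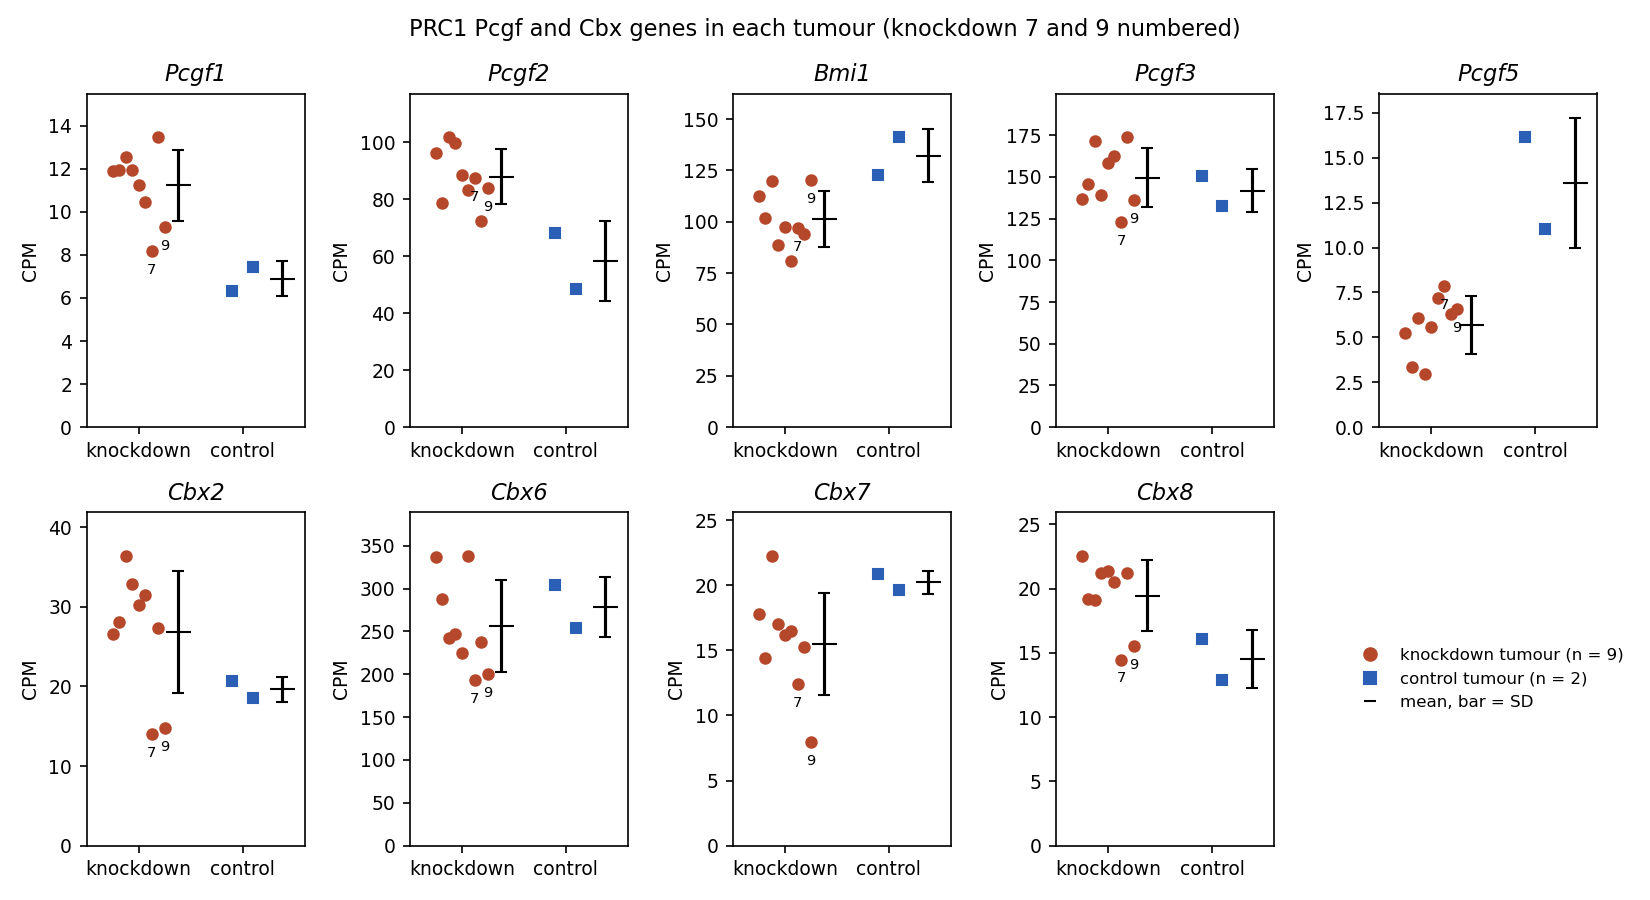
Level (CPM) of each Pcgf and Cbx member in every tumour, with circles for the 9 knockdown tumours, squares for the 2 controls, and a dash and bar for the mean and SD. The knockdown tumours lie above both controls for Pcgf1 and Pcgf2 and below both for Pcgf5 and Bmi1, and the numbered knockdown 7 and 9 are the lowest knockdown tumours for all 4 Cbx genes, Pcgf1 and Pcgf3.

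Pcgf2, also known as Mel18 and a core subunit of canonical PRC1, stood at 72.1, 87.3 and 101.8 CPM in the knockdown tumours (lowest, median, highest) and at 68.2 and 48.4 CPM in controls 1 and 2. The groups did not overlap, but the lowest knockdown tumour, number 8, was close to control 1. The mean was 87.9 ± 9.78 CPM in knockdown and 58.3 ± 14.1 CPM in control (SD, n = 9 and 2), a 1.51-fold increase (log2 fold change 0.59, 95% interval 0.25 to 0.94, edgeR adjusted p = 0.020). Pcgf2 (ENSMUSG00000018537) lies on mm9 chromosome 11, 97550137 to 97561811, and its nearest tested neighbours, Cisd3 at 202 bases and Psmb3 at 2902 bases, did not pass (log2 fold changes 0.18 ± 0.24 and 0.22 ± 0.18 SE). The call of Pcgf2 did not hold when control 2 was left out (log2 fold change 0.36, adjusted p = 0.24), while leaving out control 1 gave 0.86 (adjusted p = 0.024).

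Bmi1, the paralog of Pcgf2 in canonical PRC1, was on the other side of its controls without passing the test. It had 80.7, 97.6 and 120.5 CPM in the knockdown tumours (lowest, median, highest), against 122.9 and 141.3 CPM in the controls. All 9 knockdown tumours were thus below both controls, though the highest, number 9, was close to control 1. The means were 101 ± 13.7 CPM in knockdown and 132 ± 13.0 CPM in control, and the log2 fold change of -0.38 had a 95% interval of -0.70 to -0.06 (edgeR adjusted p = 0.078). Bmi1 was just past the threshold in the fit without knockdown 9 (-0.41, adjusted p = 0.047) and by DESeq2 (-0.42, adjusted p = 0.047). Bmi1 (ENSMUSG00000026739, mm9 chromosome 2, 18598645 to 18608256) lies 787 bases from Commd3, whose log2 fold change was 0.15 ± 0.15 SE.

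The balance of the canonical pair was read from the ratio of their counts in each tumour, which does not depend on library scaling. Pcgf2 had between 0.696 and 1.12 counts per Bmi1 count in the knockdown tumours (median 0.852), against 0.555 and 0.342 in the controls. Every knockdown ratio was above both controls, at 0.877 ± 0.133 on average in knockdown and 0.449 ± 0.1504 in control (SD). This follows from the levels above, since every knockdown tumour exceeded both controls in Pcgf2 and was below both in Bmi1. The 4 ratios described here were chosen after the members' values had been seen, and no test was made of them. The share of other gene pairs whose ratios do not overlap was not computed, so the separation is a description only.

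Pcgf1, which together with Kdm2b and Bcor forms the variant PRC1 of CpG islands, was scarcer. Its levels were 8.18, 11.9 and 13.5 CPM in the knockdown tumours and 6.31 and 7.45 CPM in the controls. The groups did not overlap, and knockdown 7 came nearest to the controls. It averaged 11.2 ± 1.65 CPM in knockdown and 6.88 ± 0.810 CPM in control, a 1.63-fold increase (log2 fold change 0.70, 95% interval 0.24 to 1.16, edgeR adjusted p = 0.032). This was the least firm of the 3 calls. Leaving out knockdown 2 (adjusted p = 0.054), control 1 (log2 fold change 0.59, adjusted p = 0.25) or control 2 (0.83, with an adjusted p of 0.099) ended it. So did limma-voom (adjusted p = 0.054) and testing unfiltered counts (adjusted p = 0.064). Pcgf1 (ENSMUSG00000069678) lies on mm9 chromosome 6, 83027863 to 83030849.

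Pcgf5 and Pcgf3, paralogs that share a variant form of PRC1, differed from each other. Pcgf5 had 2.95, 6.07 and 7.88 CPM in the knockdown tumours (41 to 129 reads), against 16.2 and 11.03 CPM in the controls (210 and 176 reads). The highest knockdown tumour, number 7, was still below control 2. Pcgf5 averaged 5.69 ± 1.64 CPM in knockdown and 13.6 ± 3.63 CPM in control, 2.39-fold lower (log2 fold change -1.25, 95% interval -1.93 to -0.58, edgeR adjusted p = 0.014). Leaving out control 1 ended the call (-0.95, adjusted p = 0.21), and leaving out control 2 did not (-1.51, adjusted p = 0.038). Pcgf3 was abundant and overlapped between groups, at 122.7, 145.5 and 173.9 CPM in knockdown and 150.7 and 132.7 CPM in control (log2 fold change 0.08, 95% interval -0.22 to 0.38, edgeR adjusted p = 0.71). The count ratio of Pcgf5 to Pcgf3 was 0.0212 to 0.0642 in the knockdown tumours, against 0.107 and 0.0831 in the controls.

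Pcgf5 (ENSMUSG00000024805) lies on mm9 chromosome 19, 36453557 to 36530682, in a region of few genes. Of the 14 tested genes within 1 Mb of it, 1 was higher, 2 were lower and 11 did not pass. Over all genes tested 10.3% were higher and 13% lower. The median log2 fold change around Pcgf5 was 0.17. Its nearest tested neighbours were Hectd2, a ubiquitin ligase gene 98447 bases away that did not pass (0.15 ± 0.25 SE), and Ankrd1, a target of YAP signalling 259223 bases away on the other side, which was 6.23-fold lower in the knockdown (2.94 ± 1.95 CPM in knockdown, 18.4 ± 5.78 CPM in control, edgeR adjusted p = 0.0070). Pcgf3 (ENSMUSG00000033623, mm9 chromosome 5, 108890251 to 108935995) had 26 tested genes within the same distance, of which 1 was higher and 3 were lower.

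**Figure D2:**
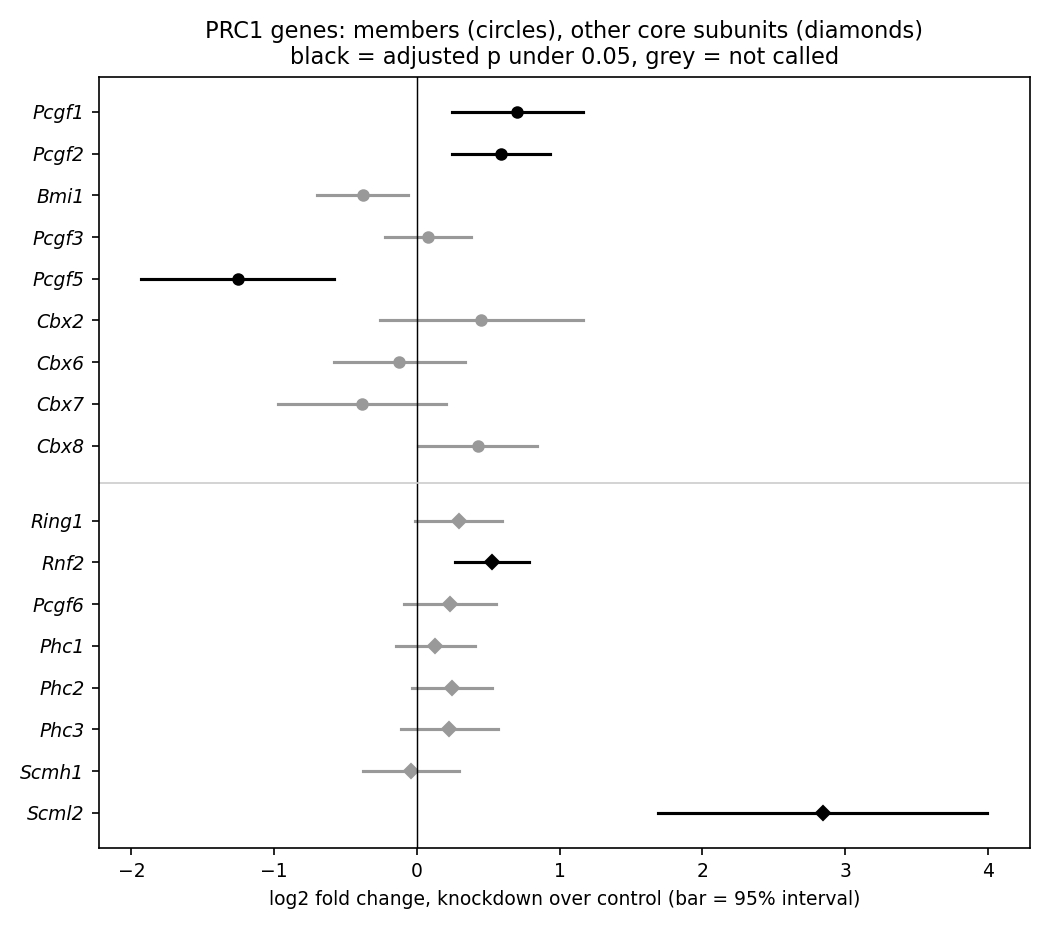
Log2 fold change of knockdown over control with its 95% interval for the 9 members (circles) and 8 further core subunits of PRC1 (diamonds), in black where the adjusted p was under 0.05. Pcgf5 is the only member beyond 1 on the log2 scale, at -1.25, and Scml2 at 2.84 is far from the other subunits.

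Among the chromobox members Cbx2 and Cbx8 had positive and Cbx7 and Cbx6 negative log2 fold changes, none of them past the test. Cbx2, whose protein can also compact chromatin, had 14.0, 28.1 and 36.4 CPM in the knockdown tumours (lowest, median, highest) and 20.7 and 18.5 CPM in the controls. In 7 knockdown tumours it was above both controls, between 26.6 and 36.4 CPM, and in knockdown 7 and 9 it was below both, at 14.0 and 14.8 CPM. Over all tumours the log2 fold change of Cbx2 was 0.45 (95% interval -0.26 to 1.16, edgeR adjusted p = 0.33).

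Cbx8, a neighbour of Cbx2, had 14.5, 20.5 and 22.6 CPM in the knockdown tumours and 16.1 and 12.9 CPM in the controls. Again only knockdown 7 and 9, at 14.5 and 15.5 CPM, lay between the controls, and the other 7 lay above both. Its log2 fold change was 0.43 (95% interval 0.01 to 0.84, edgeR adjusted p = 0.13). Cbx2 (ENSMUSG00000025577, mm9 chromosome 11, 118884276 to 118892584) and Cbx8 (ENSMUSG00000025578, mm9 chromosome 11, 118897619 to 118902283) are separated by 5035 bases.

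Cbx7, the chromobox protein of canonical PRC1 in embryonic stem cells, had 7.96, 16.2 and 22.3 CPM in the knockdown tumours, against 20.8 and 19.6 CPM in the controls. In 8 knockdown tumours it was below both controls, and knockdown 3 was above both. The log2 fold change was -0.38 (95% interval -0.97 to 0.21, edgeR adjusted p = 0.32). Cbx7 (ENSMUSG00000053411, mm9 chromosome 15, 79746237 to 79801549) overlaps the gene model of Apobec3, which held 9881 counts over the 11 libraries, and since the use of strand in counting is not given, reads in the overlap cannot be assigned with certainty. Cbx6 (ENSMUSG00000089715, mm9 chromosome 15, 79616783 to 79665118) had the highest CPM of the members, 193, 242 and 339 CPM in knockdown and 303.8 and 254 CPM in control, with broad overlap (log2 fold change -0.12, 95% interval -0.58 to 0.34, edgeR adjusted p = 0.70). It overlaps the model of Nptxr, which held 381 counts.

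Set against Cbx7 within each tumour, Cbx8 and Cbx2 had higher ratios in the knockdown. The count ratio of Cbx8 to Cbx7 was 0.858, 1.27 and 1.95 in the knockdown tumours (lowest, median, highest), against 0.771 and 0.658 in the controls. That of Cbx2 to Cbx7 was 1.13, 1.86 and 1.95 in the knockdown tumours, against 0.993 and 0.946 in the controls. All 9 knockdown tumours were above both controls in each ratio, knockdown 7 and 9 included. The lowest Cbx8 ratio belonged to knockdown 3, the tumour with the most Cbx7.

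**Figure D3:**
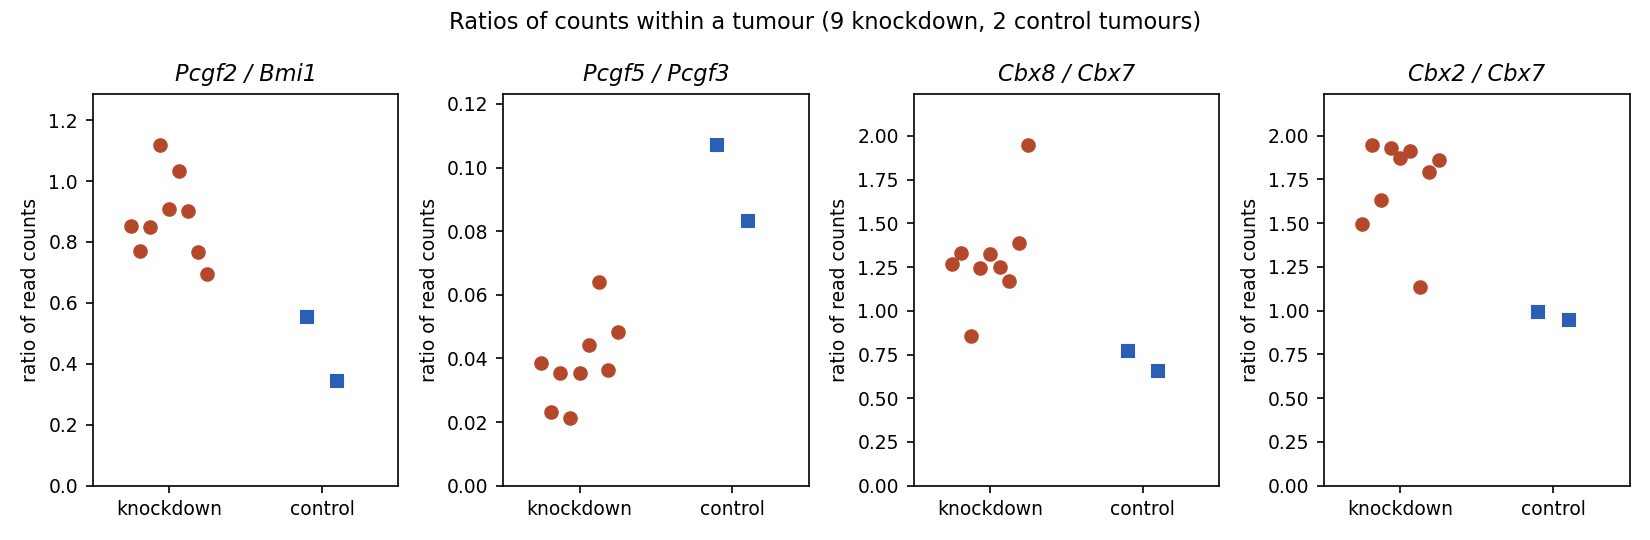
Ratio of read counts of paired members within each tumour, with circles for the 9 knockdown tumours and squares for the 2 controls. The ratio of Pcgf2 to Bmi1 is between 0.696 and 1.12 in the knockdown tumours and 0.555 and 0.342 in the controls, and in all 4 ratios the groups do not overlap. The 4 pairs were chosen after the members' values had been seen.

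Among the knockdown tumours, numbers 7 and 9 were the low end of all 4 chromobox members. In 6 of the 9 members, Cbx2, Cbx6, Cbx7, Cbx8, Pcgf1 and Pcgf3, these 2 tumours were the lowest of the 9, which was so in 7.38% of all genes tested. Cbx2 was at 14.0 and 14.8 CPM in knockdown 7 and 9, against 30.4 ± 3.49 CPM (SD) in the other 7, and Cbx7 was at 12.4 and 7.96 CPM against 17.04 ± 2.56 CPM. In Pcgf3 the gap was small, with knockdown 9 at 136.2 CPM and the next tumour at 136.6 CPM. In Pcgf5, by contrast, knockdown 7 was the highest of the 9, and in Bmi1 knockdown 9 was. These 2 tumours were singled out by the data and not by a label, so that no test was made between them and the others. Of the 3 HP1 chromobox genes Cbx1, Cbx3 and Cbx5, which read another histone H3 methyl mark and belong to heterochromatin, the summed level was also lowest in these tumours, 408 and 427 CPM in knockdown 7 and 9 against 455 to 841 CPM in the other 7. Low sums in these tumours were also found in other lists. How often lists of unrelated genes have them was not computed, so they are no trait of related genes. A sum also follows its most abundant genes, such as Cbx5 (mean 441 CPM in knockdown) above and Ogt (548 CPM) among the deubiquitinases below. The summed level of the PRC2 subunits was 928 and 929 CPM in knockdown 7 and 9 against 979 to 1211 CPM, that of 22 variant PRC1 partners 2088 and 2146 CPM against 2188 to 2363 CPM, and that of 11 genes of the H2A deubiquitinases 1170 and 1345 CPM against 1354 to 1582 CPM. The 8 further core subunits of PRC1 differed between these tumours, with 654 CPM in knockdown 7, the lowest of the 9, and 760 CPM in knockdown 9, the highest, against 657 to 743 CPM in the other 7. Of 10 proliferation markers 2 were higher in knockdown than in control tumours, beside 10.3% of all genes tested, and 8 did not pass. Their summed level was 722 CPM in knockdown 7 and 1238 CPM in knockdown 9, against 1017 to 2016 CPM in the other 7 knockdown tumours, and 576 and 861 CPM in the controls.

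Without knockdown 7 and 9 the fit called 6 of the 9 members, beside 31.3% of all genes in that fit. Since these tumours were the lowest of the knockdown group for Cbx2, Cbx8 and Pcgf1, and knockdown 9 the highest for Bmi1, leaving them out widens those differences by construction, and the calls gained are a description and not support for a difference. Cbx2 was then 1.52-fold higher (log2 fold change 0.60, edgeR adjusted p = 0.012) and Cbx8 1.403-fold higher (0.49, adjusted p = 0.028), while Bmi1 was 1.36-fold lower (-0.44, adjusted p = 0.033). Pcgf1 (0.77, adjusted p = 0.0095), Pcgf2 (0.57, adjusted p = 0.026) and Pcgf5 (-1.40, adjusted p = 0.0092) also passed. Cbx6, Cbx7 and Pcgf3 did not pass in that fit either, with log2 fold changes of -0.058, -0.28 and 0.10. In the 7 libraries with Xist above 2 CPM, that is 5 knockdown tumours and both controls, a subset chosen after the data had been seen that also lacks knockdown 7 and 9, Cbx2 (0.67, adjusted p = 0.012), Bmi1 (-0.46, adjusted p = 0.047), Pcgf1, Pcgf2 and Pcgf5 passed and Cbx8 did not (0.46, adjusted p = 0.056), beside 29.3% of all genes.

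**Figure D4:**
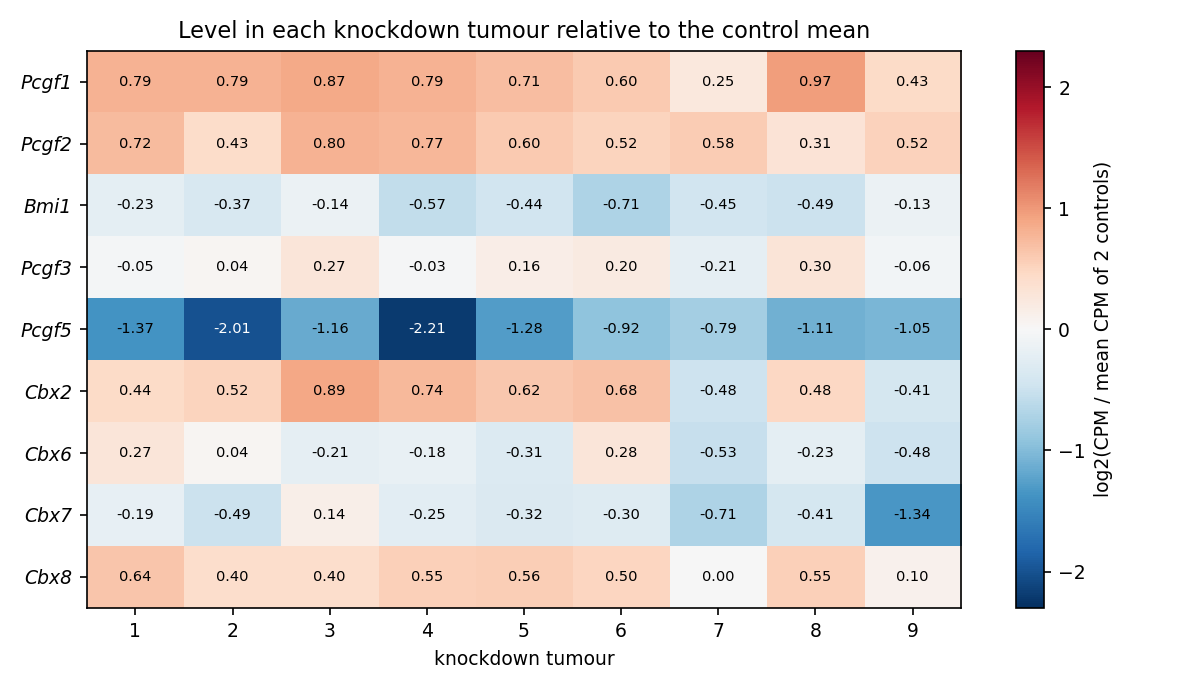
Log2 ratio of each member's CPM in each knockdown tumour to the mean of the 2 controls (red higher, blue lower in knockdown). Cbx2 is positive in 7 tumours and at -0.48 and -0.41 in knockdown 7 and 9, while Pcgf5 is between -2.21 and -0.79 in all 9 and Pcgf2 between 0.31 and 0.80.

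The genes around the members are given by their counts, beside the 10.3% called higher and 13% called lower over all genes tested. Chromosomes differed in these shares. On chromosome 11, with Pcgf2, Cbx2 and Cbx8, 15.3% were higher and 9.97% lower, with a median log2 fold change of 0.19. On chromosome 15, with Cbx6 and Cbx7, 6.57% were higher and 16.3% lower, with a median of -0.062. Whether the members' values are part of these differences was not tested. Within 1 Mb of Cbx2 32 genes were tested, 2 of them higher and 2 lower, and of 53 around Pcgf2 5 were higher and 8 lower. Around Cbx6 2 of 56 were higher and 7 lower, around Cbx7 2 of 52 and 6, around Cbx8 2 of 31 and 2, around Pcgf1 3 of 38 and 4, and around Bmi1 2 of 12 were higher and none was lower. The windows of Cbx2 and Cbx8 hold largely the same genes, as do those of Cbx6 and Cbx7, so their counts are not separate. Rbfox3, the gene of the neuronal marker NeuN, is the nearest tested gene on the other side of Cbx2, at 111365 bases. It was 7.08-fold higher (1.82 ± 1.06 CPM in knockdown, 0.262 ± 0.282 CPM in control, edgeR adjusted p = 0.034). Control 1 was at 0.462 CPM and control 2 at 0.0626 CPM, below 3 counts (0.188 CPM in control 2), so this fold rests on very few reads. The other nearest genes, Dqx1 and Ccdc142 beside Pcgf1, Mfsd7a and Gm10086 beside Pcgf3, BC061194 beside Bmi1, Pdgfb beside Cbx7 and Apobec3 between Cbx6 and Cbx7, did not pass.

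The order of the members was compared per kilobase of merged exons, using exon lengths of the GENCODE M21 annotation, since longer genes collect more reads. In the knockdown tumours Bmi1 (25.5 ± 3.45 CPM per kb, SD), Pcgf2 (24.9 ± 2.77) and Cbx6 (24.2 ± 5.07) led, and neighbours in this order did not differ beyond their spread. Pcgf3 followed at 15.7 ± 1.85 CPM per kb, below Cbx6 in all 9 tumours. Then came Pcgf1 at 6.80 ± 1.00, Cbx2 at 6.31 ± 1.80 and Cbx8 at 5.29 ± 0.750 CPM per kb, with overlap between neighbours, followed by Cbx7 at 2.39 ± 0.603 and Pcgf5 at 0.450 ± 0.129 CPM per kb, each below the member before it in every tumour. In the controls Bmi1 was at 33.2 ± 3.26 CPM per kb and Cbx6 at 26.3 ± 3.31, above Pcgf2 at 16.5 ± 3.99, and Pcgf5 was last at 1.08 ± 0.287. These lengths are from a later annotation than the counts, and no isoform was resolved.

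Within the 9 knockdown tumours the remaining Ezh2 was set against each member on the log2 scale. Of the 9 relations, that of Bmi1 was the strongest, with a Pearson r of 0.82 (exact permutation p = 0.0085, adjusted over the 9 members 0.076) and a Spearman rho of 0.83 (exact permutation p = 0.0083, adjusted 0.074), two-sided. It thus failed the adjustment. Without knockdown 3 and 9, the 2 tumours farthest from the median of Ezh2, r was 0.54 (exact permutation p = 0.21, n = 7). Leaving them out also narrows the range of Ezh2 and the number of tumours. The lower r therefore cannot tell whether the relation rests on those 2. Bmi1 was at 119.8 and 120.5 CPM in knockdown 3 and 9, where Ezh2 was at 30.4 and 30.1 CPM. For the other 8 members r over all 9 knockdown tumours was between -0.12 and 0.45, with an adjusted exact permutation p of 0.99 in each case. In the 7 tumours without knockdown 3 and 9 their r was between -0.37 (Pcgf5) and 0.59 (Cbx6).

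**Figure D5:**
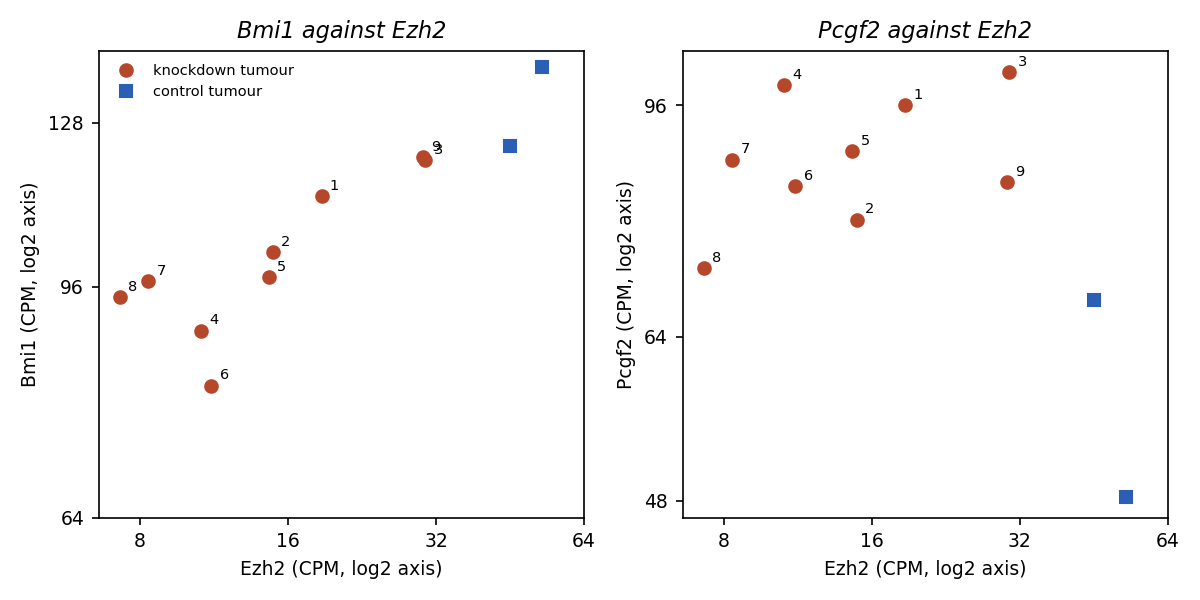
Bmi1 (left) and Pcgf2 (right) against Ezh2 in CPM on log2 axes, with circles for the knockdown tumours, numbered, and squares for the controls. Bmi1 is highest among the knockdown tumours in numbers 3 and 9, which kept the most Ezh2. Pcgf2 is also highest in number 3, at 101.8 CPM, but is at 83.9 CPM in number 9, and it is lowest in the controls. Neither relation within the knockdown tumours passed the adjustment.

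The genes whose log2 level most resembled each called member over the 9 knockdown tumours were found among 11258 protein-coding genes by Pearson's r, as a description without a test. The 3 closest to Pcgf1 were Blmh, a cysteine protease (r = 0.93), Fastkd5, of mitochondrial RNA processing (0.93), and Rpa3, a subunit of replication protein A (0.93). Those closest to Pcgf2 were the adaptor Cd2ap (r = 0.98), Ccdc84 (0.93) and Doc2b, a calcium sensor of exocytosis (0.93). Those closest to Pcgf5 were Inpp4b, a phosphoinositide phosphatase (r = 0.95), Slc9a2, a sodium-proton exchanger (0.95), and Dnajc14 (0.94). Between the groups, Blmh (log2 fold change 0.44, edgeR adjusted p = 0.047) and Rpa3 (1.22, adjusted p = 0.012) were higher like Pcgf1, and Doc2b (3.05, adjusted p = 0.0099) was higher like Pcgf2. Cd2ap was lower in the knockdown (log2 fold change -0.54, edgeR adjusted p = 0.018) while Pcgf2 was higher, and Inpp4b (-1.04, adjusted p = 0.034) and Slc9a2 (-2.41, adjusted p = 0.049) were lower like Pcgf5. Fastkd5, Ccdc84 and Dnajc14 did not pass.

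Of 8 further core subunits of PRC1, 2 were higher and 6 did not pass, beside 10.3% higher and 13% lower over all genes tested. The median log2 fold change of the 8 was 0.24. Rnf2, the main catalytic ubiquitin ligase, stood at 105 ± 9.77 CPM in knockdown and 72.6 ± 3.14 CPM in control (log2 fold change 0.53 ± 0.12 SE, edgeR adjusted p = 0.0094), and its paralog Ring1 at 27.9 ± 2.74 CPM and 22.8 ± 2.17 CPM (0.29 ± 0.14, adjusted p = 0.15). Scml2, which has been described in PRC1 of the germ line, was 7.18-fold higher, at 7.25 ± 2.71 CPM in knockdown and 0.990 ± 0.638 CPM in control (edgeR adjusted p = 0.0034). Its controls were at 0.539 and 1.44 CPM, so the size of this fold rests on few control reads. The polyhomeotic subunits Phc1 (0.13 ± 0.13), Phc2 (0.25 ± 0.13) and Phc3 (0.23 ± 0.16), Pcgf6 of a variant complex (0.23 ± 0.15), and Scmh1 (-0.044 ± 0.15) did not pass.

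Of 22 partners of variant PRC1, 3 were higher, 1 was lower and 18 did not pass, with a median log2 fold change of 0.07. Over all genes tested 10.3% were higher and 13% lower, so these counts do not set the partners apart. The deacetylase Hdac1 (0.61 ± 0.12 SE, edgeR adjusted p = 0.0053), Dcaf7 (0.54 ± 0.15, adjusted p = 0.022) and the repressor E2f6 (0.52 ± 0.17, adjusted p = 0.047) were higher, and Csnk2b, the regulatory subunit of casein kinase 2, was lower (-0.33 ± 0.08, adjusted p = 0.015). The partners that define the Pcgf1 form, Kdm2b (0.15 ± 0.19) and Bcor (0.31 ± 0.12, adjusted p = 0.081), and the Cbx counterparts of variant PRC1, Rybp (0.10 ± 0.17) and Yaf2 (-0.38 ± 0.16, adjusted p = 0.10), did not pass. Of the HP1 genes, Cbx1 (0.41 ± 0.24), Cbx3 (0.27 ± 0.19) and Cbx5 (0.17 ± 0.26) did not pass.

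Of 11 genes of the opposing deubiquitinases of histone H2A, 1 was higher, 2 were lower and 8 did not pass. The shares over all genes tested were 10.3% higher and 13% lower. Asxl3, a cofactor of the deubiquitinase Bap1, was 16.3-fold higher, at 35.1 ± 14.8 CPM in knockdown and 2.20 ± 2.66 CPM in control (edgeR adjusted p = 0.0056). Control 1 was at 4.08 CPM and control 2 at 0.313 CPM, where 3 counts are 0.188 CPM. The size of this fold is therefore uncertain. The forkhead partners Foxk1 and Foxk2 were lower by 2.01-fold (adjusted p = 0.0031) and 1.51-fold (adjusted p = 0.0094), and Bap1 itself did not pass (log2 fold change 0.11 ± 0.10). Of the 11 subunits of PRC2, 4 were higher and Ezh2 was lower, beside the same shares. The higher ones were Ezh1, the paralog of Ezh2 (0.79 ± 0.15 SE, edgeR adjusted p = 0.0040), the chromatin-targeting cofactors Mtf2 (0.79 ± 0.16, adjusted p = 0.0060) and Jarid2 (0.96 ± 0.28, adjusted p = 0.028), and Phf19 (1.098 ± 0.34, adjusted p = 0.035).

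The number of members called depended on the setting, as did the share of all genes called. With the RLE and the upper quartile scaling of edgeR 3 of the 9 members passed, beside 23.6% and 23.5% of all genes. Bmi1 made a second member lower by DESeq2, beside 14.1% of genes called lower. By limma-voom Pcgf2 was the single member higher, beside 7.56% of genes, and the same held for unfiltered counts, beside 4.99%. Without knockdown 7 and 9, 4 members were higher, beside 14% of genes, and 2 were lower, beside 17.4%. In the libraries with Xist 2 members, Pcgf5 and Bmi1, were lower, beside 15.8%. Leaving out knockdown 2 left Pcgf2 and Pcgf5 (19.2% of all genes), leaving out knockdown 9 added Bmi1 (26.3%), and leaving out knockdown 7 kept the 3 members (26.5%). With 1 control left, a single member passed, Pcgf2 without control 1 (7.61%) and Pcgf5 without control 2 (10.4%), on the assumption that the lone control varies like the other group. Against a 1.5-fold change no member passed, beside 7.14% of all genes, nor with a block on replicate number in 4 tumours, beside 4.87%, and in the same 4 tumours without the block 1 member was lower, beside 16.4% of all genes called in either direction.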

How the data were processed

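Counts of reads per Ensembl gene were deposited as one table of whole numbers. Per the submitters' processing notes the authors used TopHat 1.4.0 and HTSeq with the build mm9. Settings, strand use and read filters: not given in the sources used here. Groups and replicate numbers came from the sample titles. Nothing in the labels tells if separate cell preparations were used, so p-values measure the spread among these tumours only, possibly a technical one.

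The table was filtered with filterByExpr (16241 of 27687 genes, 99.9% of counts) and scaled by TMM (factors 0.919 to 1.08). The 9 knockdown and 2 control tumours were compared without covariates in edgeR 4.0.16 (quasi-likelihood F-test, R 4.3.3). An SE is the log2 fold change divided by the square root of F, and the 95% interval uses the t distribution with the fitted degrees of freedom. A floor of 3 counts was 0.162 to 0.273 CPM, covering counting error only, and every member lay above it in every library. Replicate libraries differed beyond sampling noise (chi-square over its degrees of freedom at least 11.2). log2 CPM used a prior count of 2. DESeq2 1.42.0, limma-voom (limma 3.58.1), other scalings, no filter, a test against a 1.5-fold change, a block on replicate number and fits without single tumours were alternatives.

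All members and 8 further core subunits were named; 1 listed subunit is not reported here. Of the other pathway lists those past the threshold were named, up to 4 by smallest p. Cell type markers were given as counts and sums, with Flt1, Nefl and Nefm named for their weight in a sum. Ezh2 was named as the target. Kdm2b, Bcor, Rybp, Yaf2, Bap1, Ogt, Cbx1, Cbx3 and Cbx5 were added outside the rule for pathway lists, as were the 4 count ratios. Similar genes had an average log2 CPM of at least 2. The members and lists were chosen with earlier results of these data known. Promoter sequences were from RefSeq (GRCm38.p6), and 7 of 9 members matched.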

Additional observations from a re-analysis of the deposited data

How the results depend on the processing

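Over the 11 fits without 1 tumour, Pcgf2 and Pcgf5 passed in 10 and Pcgf1 in 8, with 0 to 2 members called higher and 0 to 2 lower. Over all genes these fits called 1290 to 4269, of which 387 to 1957 higher and 903 to 2418 lower. The log2 fold change of Cbx6 was between -0.25 and 0.010, above 0 without control 1, and that of Pcgf3 between -0.015 and 0.17, below 0 without control 2. The cause of these changes was not tested. Without the filter on low counts and by limma-voom 1 member was higher, beside 4.99% and 7.56% of all genes called higher. By DESeq2 and in the libraries with Xist 2 were lower, beside 14.1% and 15.8% of all genes called lower. Without knockdown 7 and 9, 4 members were higher and 2 lower, beside 14% and 17.4% of all genes. Against a 1.5-fold change 1159 genes passed (450 higher, 709 lower) and 0 members either way, with adjusted p of 0.45 for Pcgf1, 0.69 for Pcgf2 and 0.087 for Pcgf5.

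A replicate block was set on knockdown 1 and 2 and control 1 and 2, for which the labels give no link but a shared number. Their deviations correlated at -0.14 and 0.02. With 2 controls the swapped pairing gives the opposite sign by construction, so these values cannot decide on a pairing. With the block 734 genes passed in edgeR (336 higher, 398 lower) and 0 members (Pcgf1, Pcgf2 and Pcgf5 at adjusted p = 0.16, 0.099 and 0.056). In the same 4 tumours without the block it was 2465 genes, 1348 of them lower, with 0 members higher and 1 lower. Cbx6 was at 0.13 in both and Pcgf3 at -0.038 with and -0.040 without the block, against -0.12 and 0.08 over all tumours. The RLE and upper quartile scalings left the members' calls as they were, with the median of all genes at 0.03 and 0.10 against 0.07, and the relations with Ezh2 kept their sign and side of the threshold on log2(CPM + 1). Each member had at least 41 reads in every library.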
